A study of Mus musculus with 6 samples.

Results

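C-type lectin receptors are membrane proteins of myeloid cells that bind sugars, glycolipids and ligands of damaged cells through a shared fold, the C-type lectin-like domain. Rows of the count files whose symbol matched 1 of 9 listed genes were taken: Clec4e, Clec4d, Clec4n, Clec5a, Clec7a, Clec4a2, Clec12a, Mrc1 and Clec10a. All 9 were found among 56832 rows, and all 9 were among the 12488 genes with enough counts to test. The series sequenced polyadenylated RNA of cells labelled as monocytes from mouse peripheral blood. Of 6 libraries, 3 are thrombocytopenic, with PF4cre-iDTR as genotype, and 3 are controls of wild type (WT) genotype; diphtheria toxin is the listed treatment of both groups. In PF4cre-iDTR mice the promoter of Pf4, active in megakaryocytes, drives Cre recombinase, which switches on a receptor for the toxin. Genotype and platelet state therefore cannot be told apart, and the labels give neither strain, age, dose nor the number of mice behind a library. Where libraries of a group do not come from separate mice, their spread, and so each p-value, reflects technical variation. The common biological coefficient of variation, the spread between libraries of a group beyond counting noise, was 2.68%. In bulk RNA, fewer cells of a type and less RNA per cell cannot be told apart.

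The receptors fall into 3 classes by what their cytoplasmic side does. Activating receptors signal through the kinase Syk, either with an adaptor such as the products of Fcer1g and Tyrobp or with a tyrosine motif of their own, and Syk passes the signal to the Card9, Bcl10 and Malt1 complex and NF-kB. Inhibitory receptors carry a tyrosine motif that recruits the phosphatases encoded by Ptpn6 and Ptpn11. Endocytic receptors take up glycoproteins for degradation or antigen presentation. Monocytes, macrophages, dendritic cells and neutrophils all use members of this family.

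The libraries held 24842319 to 37552029 counts, of which the 9 genes made up 0.519 to 0.538% in thrombocytopenic libraries and 0.428 to 0.441% in control libraries. Of the 9 monocyte marker genes, all were tested and all passed the threshold, 6 higher and 3 lower, against 45.1% of all genes tested. Their summed level was 24838 to 25129 CPM (counts scaled to library size) in thrombocytopenic libraries, against 24056 to 24527 CPM in control libraries. Markers of neutrophils differed among themselves: Mmp8 was higher, at 322 ± 5.05 CPM against 227 ± 7.21 CPM (SD, n = 3 each), as were Csf3r, Lcn2 and Mmp9. Other neutrophil markers were near 0: over the 3 thrombocytopenic libraries against the 3 control libraries, Ly6g had 0 counts against 1, Elane 0 against 2 and Mpo 1 against 9.

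Most of the receptor genes were higher in monocytes of thrombocytopenic mice, but by small amounts, and the Dectin-1 gene Clec7a went the other way. By edgeR's quasi-likelihood test (adjusted p under 0.05) 7 of the 9 were higher, 1 was lower and Clec10a did not pass. Across all genes tested 45.1% passed, 22.4% higher and 22.7% lower. Clec4a2 and Mrc1 rose 1.70-fold each, the other 5 rose 1.18-fold to 1.21-fold, and Clec7a fell 1.69-fold. The median log2 fold change of the 9 genes was 0.25, against 0.00 for all genes tested, and the median absolute log2 fold change was 0.25, against 0.15. The 3 thrombocytopenic libraries lay wholly outside the range of the 3 control libraries for 8 of the 9 genes, as they did for 51.3% of all genes tested.

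**Figure D1:**
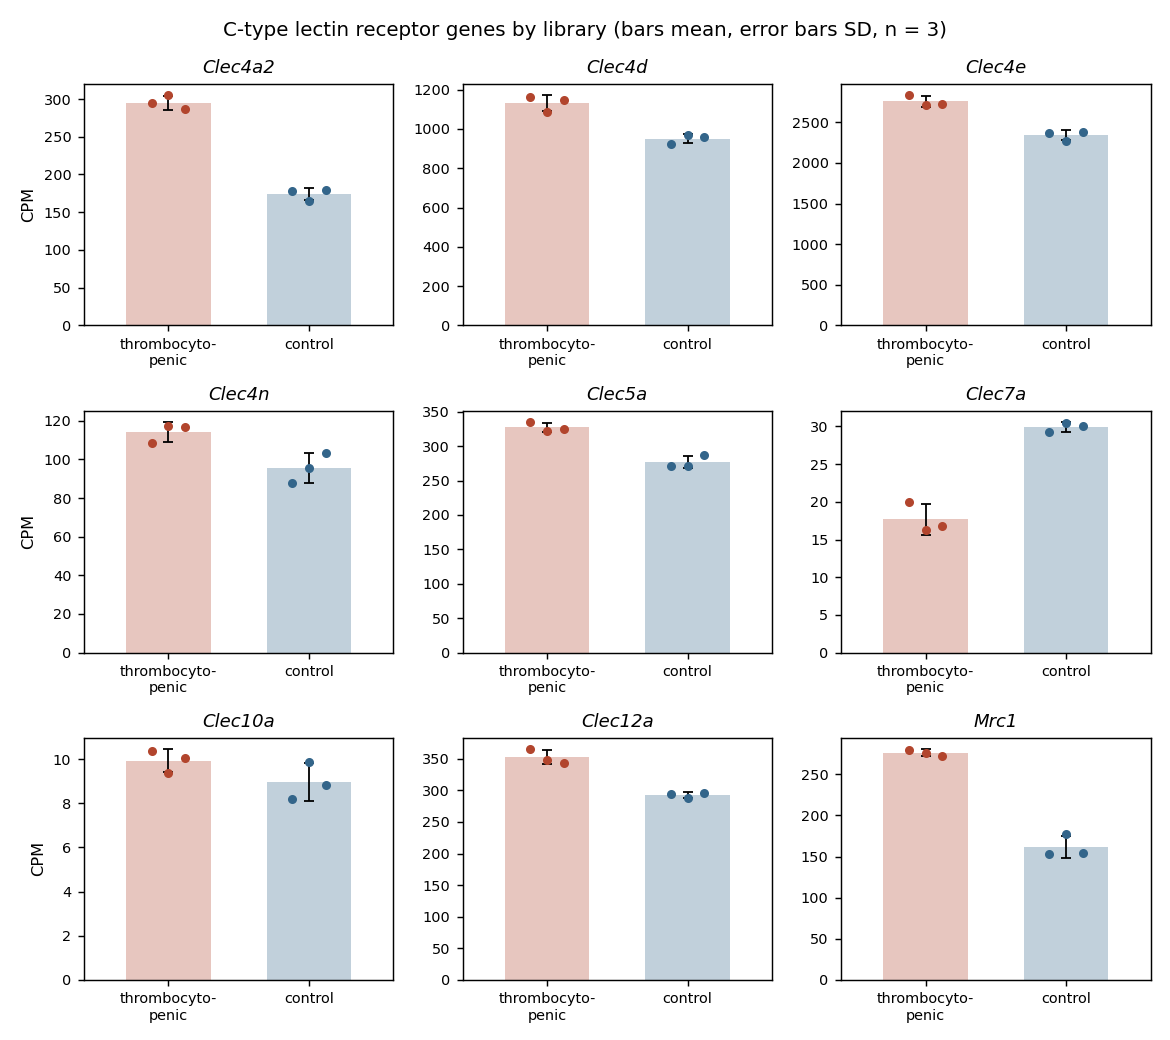
CPM of the 9 receptor genes by library, each panel with its own axis starting at 0; bars are means, error bars SD, and points the 3 libraries of a group. The thrombocytopenic points lie above the control points in 7 panels and below them for Clec7a, and the groups overlap for Clec10a.

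Promoter sequences are shown for the 2 genes with the largest rise, for the gene that fell and for the receptor gene with the most counts. They are the RefSeq windows of 250 bases before to 50 bases after a start site on GRCm38.p6, on the strand of the gene. Of the 9 genes 7 matched an entry; Clec4n and Clec10a are named only. Capitals mark matches, on either strand, to 5 motifs of factors active in myeloid cells or of the start site itself: the PU.1 core, AP-1, C/EBP, NF-kB and the TATA box.
Clec4a2, chr6:123122440-123122739, plus strand: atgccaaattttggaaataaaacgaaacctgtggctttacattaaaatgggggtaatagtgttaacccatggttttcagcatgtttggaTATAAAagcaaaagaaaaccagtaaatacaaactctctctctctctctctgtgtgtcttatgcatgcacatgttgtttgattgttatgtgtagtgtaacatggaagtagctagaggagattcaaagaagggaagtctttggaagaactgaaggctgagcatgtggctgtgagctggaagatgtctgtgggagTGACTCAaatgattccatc
Mrc1, chr2:14229164-14229463, plus strand: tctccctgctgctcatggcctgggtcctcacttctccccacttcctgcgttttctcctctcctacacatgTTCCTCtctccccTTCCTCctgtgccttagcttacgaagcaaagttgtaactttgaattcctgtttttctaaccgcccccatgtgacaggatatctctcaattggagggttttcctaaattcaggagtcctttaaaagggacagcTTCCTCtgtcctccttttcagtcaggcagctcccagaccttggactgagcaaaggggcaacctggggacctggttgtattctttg
Clec7a, chr6:129472730-129473029, minus strand: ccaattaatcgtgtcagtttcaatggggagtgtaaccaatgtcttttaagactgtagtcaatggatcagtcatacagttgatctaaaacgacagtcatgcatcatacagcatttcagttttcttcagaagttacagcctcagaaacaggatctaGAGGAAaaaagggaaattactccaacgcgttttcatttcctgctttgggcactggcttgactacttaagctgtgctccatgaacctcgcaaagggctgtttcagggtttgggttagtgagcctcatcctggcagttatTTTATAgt
Clec4e, chr6:123289822-123290121, minus strand: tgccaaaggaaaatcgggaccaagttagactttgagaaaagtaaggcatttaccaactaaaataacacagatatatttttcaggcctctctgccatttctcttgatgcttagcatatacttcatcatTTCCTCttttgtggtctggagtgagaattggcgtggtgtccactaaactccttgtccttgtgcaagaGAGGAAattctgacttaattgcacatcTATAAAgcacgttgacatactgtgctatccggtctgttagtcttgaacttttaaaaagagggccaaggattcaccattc
The PU.1 core was searched as GAGGAA and was found in 6 of the 7 genes with an entry (Clec4d, Clec4e, Clec5a, Clec7a, Clec12a and Mrc1), and in 28.3% of 32851 RefSeq promoters of the same length. Clec7a, which fell, held it as did 5 genes that rose, and Clec4a2 did not. The TATA box was searched as TATAAA, and these letters were found in 4 genes and in 13.6% of all promoters. In Clec4e the match began at position -29 from the start site. In Clec4a2 it began at -161, and on the other strand at -209 in Clec5a and at 43 in Clec7a. Clec7a has another RefSeq entry, not printed, whose window holds no TATAAA match. The AP-1 motif, with the letters TGANTCA, was found in Clec4a2 and Clec12a and in 7.81% of all promoters. The C/EBP motif, with the letters TTGCGCAA, was found in Clec12a and in 0.183% of all promoters. The NF-kB consensus was in none of the 7 and in 4.51% of all promoters. These matches describe letters in the windows and are not measured binding sites; no motif overlapped another in the 4 windows printed.

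The activating receptors that use the Fcer1g adaptor were all modestly higher. Clec4e encodes Mincle, a receptor for glycolipids such as mycobacterial cord factor. It stood at 2833, 2711 and 2724 CPM in the thrombocytopenic libraries and at 2368, 2267 and 2382 CPM in the control libraries. The groups did not overlap. The means were 2756 ± 67.2 CPM and 2339 ± 63.1 CPM (SD, n = 3 each; log2 fold change 0.24, SE 0.024; edgeR adjusted p = 2.01e-12).

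Clec4d encodes MCL (Dectin-3), which pairs with Mincle at the cell surface. It had 1162, 1087 and 1147 CPM in thrombocytopenic libraries, against 924, 969.9 and 958 CPM in control libraries, with no overlap. The log2 fold change was 0.25 (SE 0.026; edgeR adjusted p = 3.79e-12). Both partner genes moved by a similar amount: the ratio of Clec4e to Clec4d CPM was 2.37 to 2.49 in thrombocytopenic libraries and 2.34 to 2.56 in control libraries, and these ranges overlap.

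Clec4n encodes Dectin-2, a receptor for fungal mannans. It had 108, 117 and 117 CPM in thrombocytopenic libraries and 87.9, 95.7 and 104 CPM in control libraries. The groups were separate but close, with the highest control library just under the lowest thrombocytopenic one. Its log2 fold change was 0.25 (SE 0.051; edgeR adjusted p = 0.00129).

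Clec5a, an activating receptor that couples to the Tyrobp adaptor and is known as a sensor of flaviviruses, was also higher. It had 335, 322 and 325 CPM in thrombocytopenic libraries, against 272, 272 and 287 CPM in control libraries, and the groups did not overlap (log2 fold change 0.24, SE 0.028; edgeR adjusted p = 1.30e-10).

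Clec7a, the gene of the fungal beta-glucan receptor Dectin-1, which signals to Syk through a motif in its own tail, was the member that fell. It had 20.01, 16.2 and 16.8 CPM in thrombocytopenic libraries and 29.2, 30.5 and 30.0 CPM in control libraries. Every thrombocytopenic library lay below every control library. The means were 17.7 ± 2.04 CPM and 29.9 ± 0.649 CPM (SD, n = 3 each; log2 fold change -0.75, SE 0.060; edgeR adjusted p = 4.06e-15). Clec7a was one of the weakest of the 9 genes, with 1832 counts over the thrombocytopenic libraries and 2686 over the controls. Within each library, the ratio of Clec4n to Clec7a CPM was 5.42 to 7.22 in thrombocytopenic libraries and 3.01 to 3.45 in control libraries.

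Both inhibitory receptor genes rose. Clec4a2 encodes DCIR, an inhibitory receptor of dendritic cells and monocytes. It had 294, 305 and 287 CPM in thrombocytopenic libraries, against 178, 165 and 179.7 CPM in control libraries. The gap between the groups was far wider than the spread within them (295 ± 9.27 CPM against 174 ± 7.89 CPM, SD, n = 3 each; log2 fold change 0.76, SE 0.031; edgeR adjusted p = 1.50e-26). Of all genes tested, 6.82% had a larger absolute log2 fold change than Clec4a2. Clec12a encodes MICL, an inhibitory receptor that binds uric acid crystals. It stood at 365, 349 and 344 CPM in thrombocytopenic libraries and at 295, 287 and 295 CPM in control libraries, without overlap (log2 fold change 0.27, SE 0.027; edgeR adjusted p = 2.82e-12). The ratio of Clec4a2 to Clec12a CPM was 0.806 to 0.875 in thrombocytopenic libraries, against 0.576 to 0.609 in control libraries.

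The endocytic receptors split. Mrc1 encodes the mannose receptor (CD206), which takes up glycoproteins and marks alternatively activated macrophages. It had 280.1, 277 and 272 CPM in thrombocytopenic libraries and 153, 177 and 155 CPM in control libraries, and the groups were far apart. The means were 276 ± 3.93 CPM and 162 ± 13.4 CPM (SD, n = 3 each; log2 fold change 0.77, SE 0.048; edgeR adjusted p = 1.17e-07). Clec10a encodes MGL1, a receptor for galactose-type sugars found on macrophages and dendritic cells. It had 10.4, 9.38 and 10.1 CPM in thrombocytopenic libraries, against 8.19, 9.88 and 8.85 CPM in control libraries. These ranges overlapped and the test was not passed (log2 fold change 0.14, 95% interval -0.03 to 0.31; edgeR adjusted p = 0.184). The interval leaves room for a rise of the size seen in the Mincle and MCL genes.

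Levels can be compared between genes only per length, here as CPM per kilobase of exon in GENCODE M21. On this scale Clec4d was highest in both groups, at 708 ± 24.9 in thrombocytopenic libraries and 595 ± 14.8 in control libraries (SD, n = 3 each), although Clec4e had more CPM before division by length. Clec4e followed at 555 ± 13.5 and 471 ± 12.7. A gap separated this pair from the next genes. In thrombocytopenic libraries Clec4a2 ranked next at 98.0 to 104 per kilobase, ahead of Clec5a at 83.8 to 87.1 and Clec4n at 76.4 to 82.6. In control libraries Clec4a2, at 56.5 to 61.4, ranked below Clec5a at 70.7 to 74.7 and Clec4n at 61.9 to 72.9, and the ranges of Clec5a and Clec4n overlapped. The order below them was the same in both groups. Clec12a had 63.8 ± 1.97 and 52.9 ± 0.822, Mrc1 43.4 ± 0.617 and 25.4 ± 2.11, Clec7a 6.70 ± 0.772 and 11.3 ± 0.246, and Clec10a 3.43 ± 0.174 and 3.10 ± 0.294 per kilobase, thrombocytopenic first. The receptor with the lowest level was thus the one that did not pass the test.

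**Figure D2:**
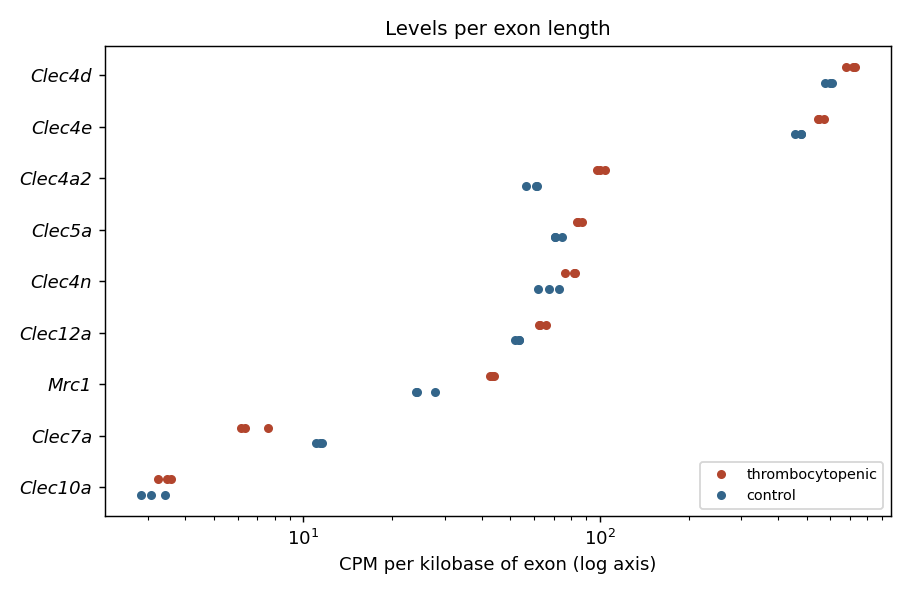
CPM per kilobase of exon (log axis) of the 9 genes, ordered by their mean in thrombocytopenic libraries; each point is 1 library. Clec4d and Clec4e stand apart at the top, and Clec4a2 lies above Clec5a and Clec4n in thrombocytopenic libraries and below them in control libraries.

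By RefSeq annotation 7 of the 9 genes lie on mouse chromosome 6, many of them beside other C-type lectin genes, so their neighbours were looked up in RefSeq order. This step was chosen after values were seen. In the cluster that runs from Clec4a1 to Clec4e, 8 of 9 protein-coding genes were tested, 7 were higher and none was lower. The shares over all genes tested were 22.4% higher and 22.7% lower. Among the 7 are the members Clec4a2, Clec4n, Clec4d and Clec4e, already described. The non-members Clec4a1 and Clec4a3, further DCIR family genes, rose by 0.56 each on the log2 scale (Clec4a1 729 ± 15.8 CPM against 495 ± 18.6 CPM; Clec4a3 218 ± 6.49 CPM against 148 ± 1.87 CPM; edgeR adjusted p = 1.13e-24 and 5.20e-23). Clec4b1 was higher by 0.71 at a low level of 3.09 ± 0.402 CPM against 1.90 ± 0.383 CPM. The far more abundant Clec4a2, at 295 CPM against 174 CPM, shares stretches of 50 bases with Clec4a4 and Clec4b1. Whether reads of Clec4a2 were assigned to Clec4b1 was not tested. Clec4a4, at 1.17 ± 0.106 CPM against 1.25 ± 0.312 CPM, missed the threshold, and Clec4b2 had too few counts to test.

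The cluster from Clec12a to Olr1 was mixed. Of its 7 protein-coding genes 5 were tested, 1 was higher (Clec12a), 3 were lower, the member Clec7a included, and 1 did not pass. For the counts in this paragraph, the shares over all genes tested were 22.4% higher and 22.7% lower. Olr1, the gene of the oxidised LDL receptor LOX-1 and the neighbour of Clec7a, fell to 21.1 ± 1.89 CPM in thrombocytopenic libraries, against 94.8 ± 2.90 CPM in control libraries (SD, n = 3 each; log2 fold change -2.17, SE 0.046; edgeR adjusted p = 8.02e-39). Clec1b, which encodes the platelet receptor CLEC-2, had 75 counts against 317 (log2 fold change -2.27; edgeR adjusted p = 6.53e-15). It stood among other platelet transcripts that differed: of 14 listed platelet and megakaryocyte genes, Clec1b included, 8 were tested. Of these 8, 5 were lower and 2, Pf4 and Ppbp, higher. Gp1bb was at 0 in every library. In sum the 14 genes were higher, at 1223 to 1295 CPM in thrombocytopenic libraries against 1012 to 1058 CPM in control libraries. The median log2 fold change of the 8 tested genes was -1.08, so the sum does not stand for most of them. Clec9a had 25 counts against 40 and did not pass (edgeR adjusted p = 0.0867). Of the genes tested on chromosome 6, 48.5% passed the threshold, against 46.1% on the other chromosomes. The iDTR allele in common use sits at the Rosa26 locus on the same chromosome; within 20 Mb of that locus, a window that holds 6 of the 9 genes, 53.3% of 182 genes passed. Whether the allele or its flanking DNA has a part in the members' values was not tested.

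**Figure D3:**
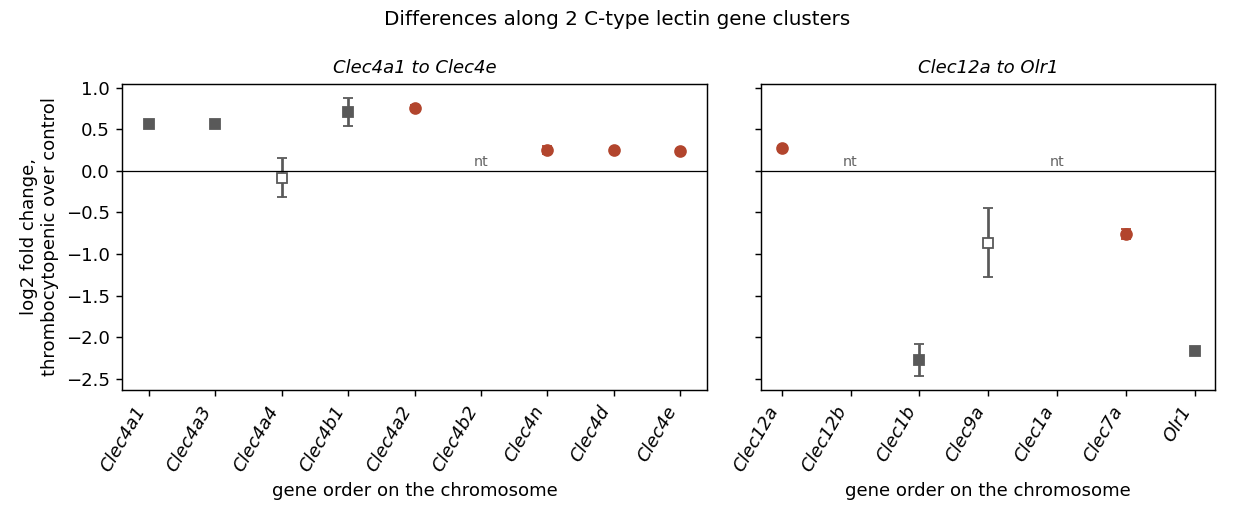
Log2 fold change, thrombocytopenic over control, along 2 gene clusters in RefSeq order; circles are the receptor genes described here, squares their neighbours, error bars SE, open symbols not past the threshold, nt not tested. The tested genes of the left cluster other than Clec4a4 lie above 0, while in the right cluster Clec12a lies above 0 and Clec1b, Clec7a and Olr1 lie below it.

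Further genes with a C-type lectin domain, from a list of 62, mostly had few counts, and 24 were tested. Of these, 5 were higher, 6 lower and 13 did not pass, with a median log2 fold change of -0.07. The shares over all genes tested were 22.4% higher and 22.7% lower. Beyond the 2 clusters, Cd72, an inhibitory receptor best known from B cells, was at 26.2 ± 1.97 CPM against 51.2 ± 2.35 CPM (log2 fold change -0.96; edgeR adjusted p = 3.55e-23). Ly75, the endocytic receptor DEC-205 and a relative of Mrc1, had a log2 fold change of -1.25 at 8.50 ± 0.369 CPM against 20.3 ± 0.763 CPM, so it moved opposite to Mrc1; it was chosen after its values were seen. The dendritic cell lectin Cd209a had 13 counts against 5, Mgl2, the near copy of Clec10a, 17 against 23, and 15 genes of the list had no count in any library.

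Genes that act below the activating receptors were more often higher than lower, each of those higher by less than Clec4a2 or Mrc1. Of 32 listed adaptor and signalling genes, all tested, 17 were higher, 9 lower and 6 did not pass (median log2 fold change 0.10). Over all genes tested 22.4% were higher and 22.7% lower. The shared adaptors rose slightly: Fcer1g was at 826 ± 26.1 CPM against 788 ± 19.6 CPM and Tyrobp at 495 ± 9.34 CPM against 468 ± 1.88 CPM (log2 fold changes 0.07 and 0.08; edgeR adjusted p = 0.0249 and 0.00673), and the Fcer1g libraries of the groups overlapped. Syk stood at 1034 ± 15.5 CPM against 794 ± 5.11 CPM, a log2 fold change of 0.38. The Src family kinase gene Lyn, the Syk substrate gene Lcp2 and the NF-kB subunit gene Rel were at 0.41, 0.41 and 0.54. Card9, Bcl10 and Malt1, which form the complex below Syk, were higher by 0.18, 0.36 and 0.12. Genes of other scaffolds and kinases fell: Blnk had a log2 fold change of -0.91 and Tec one of -0.96. Fcer1g, Tyrobp, Syk and the Card9 complex are named for their role, and Tec after its values were seen.

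Of 15 listed phosphatases, ligases and inhibitory receptors on the opposing side, all tested, 9 were higher, 3 lower and 3 did not pass (median log2 fold change 0.10). For all genes tested the shares were 22.4% higher and 22.7% lower. Ptpn6, which encodes SHP-1, the phosphatase recruited by DCIR and MICL, rose to 661 ± 2.47 CPM in thrombocytopenic libraries, against 494 ± 1.99 CPM in control libraries (log2 fold change 0.42; edgeR adjusted p = 4.49e-21). Ptpn11, which encodes SHP-2, did not pass the test (0.05). Inpp5d, the gene of the lipid phosphatase SHIP-1, fell by 0.47. Pirb, another inhibitory receptor gene, and Ptprj, a receptor phosphatase gene, rose by 0.48 and 0.37.

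Of 19 genes known to be induced through Dectin-1 or Mincle, 16 were tested. Of these, 14 were higher and 2, Nos2 and Il12b, lower (median log2 fold change 0.69). Among all genes tested 22.4% were higher and 22.7% lower. The neutrophil chemokine gene Cxcl2 stood at 936 ± 10.8 CPM against 505 ± 22.5 CPM, and Csf3, which encodes G-CSF and was chosen after its values were seen, at 9.93 ± 0.259 CPM against 4.59 ± 0.762 CPM. The 2 genes of the list with the smallest p, Nos2 and Il1b, were at -1.31 and 1.32, and Nfkbiz at 0.78. These genes respond to many receptors, and the part of C-type lectin receptors in their levels was not tested.

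**Figure D4:**
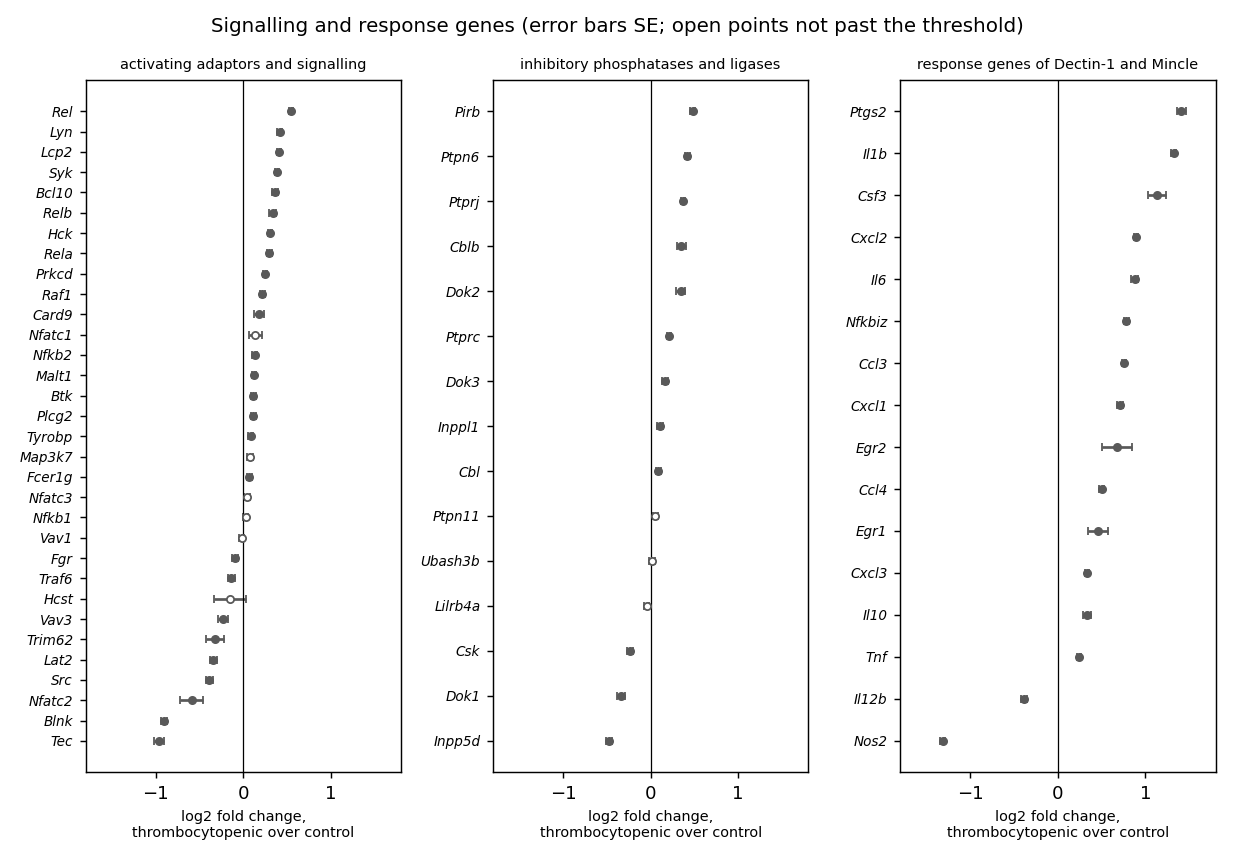
Log2 fold change, thrombocytopenic over control, of 32 adaptor and signalling genes, 15 inhibitory genes and the 16 tested response genes; error bars are SE and open points did not pass the threshold. Most points lie right of 0, with Blnk and Tec lowest in the first panel, Inpp5d in the second and Nos2 in the third.

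Because other cells also carry these receptors, marker lists are given beside them. Their counts of genes called stand against 22.4% higher and 22.7% lower over all genes tested. Neutrophils express Clec4d, Clec4e and Clec5a. Of 15 neutrophil markers 9 were tested, 4 of them higher and 1 lower, and their summed level was 598 to 603 CPM against 433 to 456 CPM, nearly all of it from Mmp8, Csf3r, Lcn2 and Mmp9. The granule and calcium-binding protein genes S100a8 and S100a9 were at 7.39 ± 0.912 CPM against 8.28 ± 0.112 CPM and at 1.82 ± 0.971 CPM against 2.75 ± 0.541 CPM; neither passed.

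Mrc1 is also a marker of tissue macrophages. The 15 macrophage markers, from which Mrc1 was kept out, went the other way: of 13 tested 9 were lower and 2, Marco and Cd5l, higher, and the summed level was 1433 to 1478 CPM against 2391 to 2548 CPM. Vsig4 was at 0 in every library, Lyve1 had 0 counts against 1 and Cd163 was at 0.535 ± 0.116 CPM against 0.429 ± 0.142 CPM, while Apoe, Axl, Mertk and Siglec1 fell. Dendritic cells, which use Clec4a2, Clec10a and Clec12a, had 7 of 9 tested markers lower and none higher, with a summed level of 273 to 285 CPM against 390.5 to 402 CPM. Those with the smallest p were H2-Ab1, Ccr7, Bst2 and Siglech. Of the other dendritic cell markers, Clec9a had 25 counts against 40 and did not pass. Cd209a, with 13 counts against 5, was not tested. Of the subset markers, 3 of 7 classical monocyte genes were higher and 3 lower, at 1526 to 1602 CPM against 1389 to 1429 CPM in sum. Among 8 tested of 9 nonclassical monocyte genes 5 were higher and 1 lower, at 2449 to 2554 CPM against 2231 to 2274 CPM in sum. Cd36 gave most of that sum, at 1846 ± 63.6 CPM against 1618 ± 19.9 CPM, and the gene that fell was Cx3cr1, at 11.4 ± 0.373 CPM against 52.2 ± 1.09 CPM (log2 fold change -2.19). Lymphoid and erythroid markers were scarce: B cell markers summed to 14.3 to 16.4 CPM against 16.1 to 17.8 CPM (1 of 3 tested higher, 1 lower). T and NK cell markers summed to 0.321 to 0.503 CPM against 0.884 to 1.14 CPM, erythroid markers to at most 0.0559 CPM against 1.89 to 2.41 CPM, each with 1 gene tested and lower. Basophil, eosinophil and mast cell markers summed to 92.9 to 98.1 CPM against 98.9 to 101 CPM. Hdc, which did not pass the test, gave most of that sum. Of 6 tested genes 5 were lower, and the median log2 fold change of the 6 was -4.00. The part of any of these cells in the receptor genes' levels was not tested.

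Reads can be misassigned between near copies, so the transcripts of the 9 genes were compared with all GENCODE M21 transcripts in stretches of 50 bases. No such stretch of Clec4d, Clec4e, Clec5a, Clec7a or Mrc1 occurred in another gene, and the shares were 0.457% in Clec12a and 0.686% in Clec4n. Clec4a2 shared 6.83% of its stretches, 182 of 202 of them with Clec4a4 or Clec4b1, and Clec10a shared 9.02%, 270 of 287 with Mgl2. Values of Clec4a2 and Clec10a are uncertain to that extent, although Clec4a4, Clec4b1 and Mgl2 had few counts. The low values of Clec4a4, Clec4b1 and Mgl2 are uncertain too, and the shared part of their own transcripts was not measured. No exon of the 9 genes overlapped an exon of another gene in that annotation.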

How the data were processed

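RNA of 6 libraries, 3 thrombocytopenic and 3 control by the labels, was analysed from 1 deposited file of raw counts per gene symbol for each library; no values were normalised by the authors in these files. The submitters' processing notes name STAR 2.7.9a, featureCounts, Subread 2.0.1, Salmon 1.5.2 and fastp 0.23.1, with no roles. The sources used here give no genome build, annotation or strand setting. Counts were filtered with filterByExpr (minimum count 10, minimum total count 15), scaled by TMM factors (0.9943 to 1.002) and compared by the robust quasi-likelihood test of edgeR 4.0.16 in R 4.3.3, two-sided and without covariates. P-values were adjusted by Benjamini-Hochberg over all 12488 genes tested, and 0.05 was the threshold. Each SE was derived from the log2 fold change and its F statistic, and 95% intervals from the SE. CPM use library totals times TMM factors. Levels of about 10 CPM rest on 204 to 387 counts per library (Clec10a) and have the largest SE of the 9 genes.

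The 9 genes, the gene lists and the named-gene rule (all 9 receptors, and from each list up to 4 genes with the smallest p plus exceptions) were chosen with earlier results of these data known. Lists are described by counts and medians, with no list test. The fit was tested on simulated counts. The alternatives tried were scaling by RLE, by upper quartiles or by library totals, DESeq2 1.42.0, limma-voom (limma 3.58.1), other filters, a fit without the robust option, a replicate block, a threshold of 0.01 and leaving out each library. Sequences are from RefSeq (GRCm38.p6), matched by symbol, and exon lengths from GENCODE M21, which may differ from the annotation used for counting.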

Additional observations from a re-analysis of the deposited data

How the results depend on the processing

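All 16 alternatives kept the direction and the side of the threshold of each of the 9 receptor genes, 144 of 144 values. The log2 fold change ranged from 0.72 to 0.78 for Clec4a2, from 0.73 to 0.84 for Mrc1, from -0.86 to -0.70 for Clec7a and from 0.08 to 0.22 for Clec10a, whose adjusted p stayed between 0.0636 and 0.521. For Clec4n it ranged from 0.20 to 0.31, with an adjusted p of at most 0.0163. In the list of endogenous ligands and membrane partners, 3 genes were called higher in the main setting. This count was 1 with upper quartile factors, library totals, DESeq2, the replicate block or a threshold of 0.01. It was 1 to 2 when any 1 library was left out. In the main setting Anxa1 and Sf3b3 lay just under the threshold of 0.05, with an edgeR adjusted p of 0.0420 each. The cause of the lower counts was not tested further. Same-numbered libraries did not deviate together (correlations of -0.0383, -0.0892 and -0.0127 over tested genes), and differently numbered ones gave -0.0588 to 0.0883. With 3 libraries per group these values cannot settle whether the numbers mark pairs. With the replicate block 7 receptor genes were higher and 1 lower, as without it, and 2679 genes in all were higher and 2723 lower. Leaving out any 1 of the 6 libraries changed no call among the 9 genes. At 1832 and 2686 counts for Clec7a and 1027 and 814 for Clec10a in the thrombocytopenic and the control group, these 2 genes had the fewest counts of the 9, and Clec10a had the largest SE of the 9 (0.084).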

Other observations

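Transcription factor genes linked to these receptors in mouse moved in both directions, with 4 of 11 tested higher and 4 lower. All genes tested had shares of 22.4% higher and 22.7% lower. Cebpb, which drives Clec4e in macrophages, was at 122 ± 4.58 CPM in thrombocytopenic libraries and 130.4 ± 13.1 CPM in control libraries and did not pass the test (edgeR adjusted p = 0.404). Its relative Cebpd rose to 139 ± 5.13 CPM, against 71.8 ± 4.39 CPM (log2 fold change 0.95; edgeR adjusted p = 6.68e-25). Spi1, the gene of PU.1, was higher by 0.27 and Maf by 0.25. Pparg, a factor of alternatively activated macrophages like Mrc1, was higher by 0.77 at 9.55 ± 0.406 CPM against 5.63 ± 0.645 CPM. Irf8 fell by 0.40, and Irf4 had a log2 fold change of -1.65. The level of Irf4 was low, with 38 counts over the thrombocytopenic libraries against 105 over the controls (0.360 ± 0.139 CPM against 1.15 ± 0.300 CPM). The choice of Pparg, Irf4 and Cebpb was made with their values known.

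Genes of endogenous ligands and membrane partners of C-type lectin receptors, the non-member CLEC-2 included, were also listed. They were higher in 3 of 9 and lower in 4, against 22.4% and 22.7% of all genes tested. Pdpn, which encodes podoplanin, the ligand of the platelet receptor CLEC-2, fell to 119 ± 5.60 CPM in thrombocytopenic libraries, against 262 ± 7.86 CPM in control libraries (log2 fold change -1.14, SE 0.031; edgeR adjusted p = 4.75e-34), in the libraries where the CLEC-2 gene Clec1b was lower too. Lgals9, the galectin 9 gene, and the tetraspanin gene Cd63 fell by 0.26 and 0.35, and Cd82 rose by 0.18. Sf3b3, whose product is a Mincle ligand, was at 217 ± 2.55 CPM against 207 ± 2.42 CPM (edgeR adjusted p = 0.0420).

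The gene whose log2 CPM followed each receptor gene most closely over the 6 libraries was Pstpip2 for Clec4a2 and Anxa6 for Mrc1, with Pearson correlations of 0.9996 and 0.9995. The nearest were Lamp1 for Clec7a (0.9996), Cdk12 for Clec4e (0.9985), Eid1 for Clec4d (0.9992), Daam1 for Clec4n (0.991), Fas for Clec5a (0.9985) and Dstn for Clec12a (0.9992). These correlations describe 6 points that share the difference between the groups, are each the highest among many genes, and do not measure the size of a change. The log2 fold changes of Pstpip2, Anxa6 and Lamp1 were 0.12, 0.20 and -0.12, against 0.76, 0.77 and -0.75 for their receptor genes. Cdk12, Eid1 and Daam1, at 0.11, 0.21 and 0.13, also changed less than their receptor genes. Fas and Dstn, at 0.45 and 0.34, changed more.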
